A study of Mus musculus with 6 samples.

Results

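The transcripts of 10 cathepsins, *Ctsa*, *Ctsb*, *Ctsc*, *Ctsd*, *Ctsf*, *Ctsh*, *Ctsk*, *Ctsl*, *Ctss* and *Ctsz*, were examined in cultured mouse microglia with and without deletion of *Nr1d1*, the gene of the clock repressor REV-ERBα. The members were taken by gene symbol, and all 10 were found among the 55487 genes counted. All 10 also passed the expression filter (above 1 CPM in at least 4 libraries) that left 11429 genes to be tested. RNA came from 6 cultures of cortical microglia from P1-3 pups of the CAG::CreERT2; Nr1d1fl/fl line, with 1 library each. Of these, 3 were Cre- (the controls, with floxed alleles but no Cre) and 3 were Cre+ (the REV-ERBα KO cultures). Every culture, controls included, received 4-hydroxytamoxifen (4-OHT) at 1.5 μM for 2 days. This time is from the paper's results, and its methods give a shorter one. The groups thus differed in Cre but not in the drug. No culture had Cre without 4-OHT, and none had Cre and 4-OHT without the floxed alleles. Effects of active Cre itself therefore cannot be told apart from those of losing *Nr1d1*. The CAG promoter is active in most cell types, so the deletion was not restricted to microglia, and the mixed glia had been grown with GM-CSF before the microglia were shaken off. The labels do not say whether the cultures of one group came from separate pups, so the p-values measure only the spread between these libraries.

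Cathepsins are the proteases of the lysosome and endosome. They are made as inactive precursors, tagged with mannose 6-phosphate in the Golgi, carried to acidic compartments and activated there by removal of the propeptide. Most of the family are cysteine proteases related to papain, whereas cathepsin D is an aspartic protease and cathepsin A is a serine carboxypeptidase. In microglia and macrophages they break down phagocytosed material, and cathepsin S trims the invariant chain of MHC class II. Cystatins hold the cysteine cathepsins in check.

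The libraries held 87545868 to 110909129 counts on genes, and each member had between 3646 and 3214453 counts in a library. *Nr1d1* was at 2.35, 1.20 and 1.64 CPM (counts per 1000000 of the TMM-normalized library size) in the Cre- libraries and at 1.00, 0.945 and 1.08 CPM in the Cre+ libraries. The difference did not pass the threshold (log2 fold change -0.77, standard error, SE, 0.25, edgeR adjusted p = 0.0945, quasi-likelihood test), and gene counts also cover exons outside the floxed part. Of the microglia and macrophage markers, *Cd68*, *Trem2* and *Csf1r* were abundant, whereas *P2ry12* was at most 1.03 CPM and *Tmem119* at most 3.55 CPM in any library. Among the markers of neurons and of fibroblasts and mural cells, no gene passed the filter. Their summed level was low but without overlap between the groups, at 1.44 to 2.37 CPM in Cre- against 0.585 to 0.741 CPM in Cre+ libraries for the 7 fibroblast and mural genes. It was 2.88 to 3.77 CPM against 2.05 to 2.14 CPM for the 6 neuronal genes. Genes with at least 1 count numbered 32587 to 35166 in Cre- and 29941 to 30677 in Cre+ libraries. Their part in the results was not tested, and in bulk RNA fewer cells of a type cannot be told apart from less RNA per cell. The summed level of the 9 microglia and macrophage markers was 6091 to 6337 CPM in Cre- and 6118 to 6340.3 CPM in Cre+ libraries. *Cd68* (3879 to 4090 CPM) and *Trem2* (1573 to 1657 CPM) made up most of this sum, so it says little about the other markers. *Aif1* (2.37 to 3.25 CPM), *Cx3cr1* (log2 fold change 0.44, edgeR adjusted p = 0.113) and *C1qa* (-0.24, adjusted p = 0.154) overlapped between the groups and were not called. Of the 8 tested, *Itgam* was called higher (log2 fold change 0.18, edgeR adjusted p = 0.0463), a call lost when any 1 library was left out. The astrocyte and oligodendrocyte lists had 2 tested genes each, none called, with summed levels of 44.1 to 48.1 and 73.3 to 83.2 CPM in Cre- and of 42.6 to 48.4 and 70.4 to 75.0 CPM in Cre+ libraries. Of the 5 endothelial markers 2 were tested and *Flt1* was called higher (log2 fold change 0.33, edgeR adjusted p = 0.0245), though in only 1 of the 6 fits without 1 library. The summed level was 20.8 to 22.8 CPM against 24.3 to 27.9 CPM, of which *Flt1* made up 19.4 to 20.5 and 23.1 to 26.5 CPM. The other endothelial markers had lower means in Cre+ libraries. *Pecam1* was lower without overlap (0.36 to 0.63 against 0.23 to 0.33 CPM), whereas *Kdr*, *Cdh5* and *Cldn5* overlapped.

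The cathepsins were among the most abundant transcripts of these cells. Together they took 6.65% ± 0.00498 of all counts in the Cre- libraries and 6.84% ± 0.184 in the Cre+ libraries (SD, n = 3 cultures each). The groups overlapped, since Cre+ replicate 2, at 6.63%, lay below all 3 Cre- libraries (6.64% to 6.65%). By counts alone, *Ctsb*, *Ctsd* and *Ctss* ranked 5, 6 and 11 among all genes other than ribosomal RNA. Since long genes collect more counts, levels between members were compared as TMM-normalized CPM per kilobase of gene model, and on that scale the family spanned a range of 1050-fold. *Ctsd*, the aspartic protease active at acidic pH, was at 8822 ± 441 CPM per kilobase over the 6 libraries (SD), and *Ctss*, the cysteine protease of antigen processing, at 8183 ± 182. The ranges of this pair overlapped, although *Ctsd* was the higher in each library. *Ctsb*, an endopeptidase that also acts as a carboxypeptidase, followed at 4563 ± 268, and the carboxypeptidase *Ctsz* at 2244 ± 96.4. These were well separated from *Ctsa*, the protective protein of neuraminidase and β-galactosidase, at 478 ± 13.6 and from *Ctsl* at 367 ± 16.8. The aminopeptidase *Ctsh* was at 154 ± 10.9.

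At the low end, *Ctsk*, the collagen-degrading protease best known from osteoclasts, and *Ctsc*, the dipeptidyl peptidase that activates serine proteases of granules, were at 51.5 ± 6.54 and 51.2 ± 1.74 CPM per kilobase. Their order differed between the groups. *Ctsk* was the lower of the pair in all 3 Cre- libraries (45.1 to 46.2 against 49.1 to 53.7) and the higher in all 3 Cre+ libraries (56.1 to 59.3 against 50.9 to 52.6). *Ctsf* was the least abundant at 8.40 ± 1.10. Every other pair of neighbours in this order had ranges that did not overlap.

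**Figure D1:**
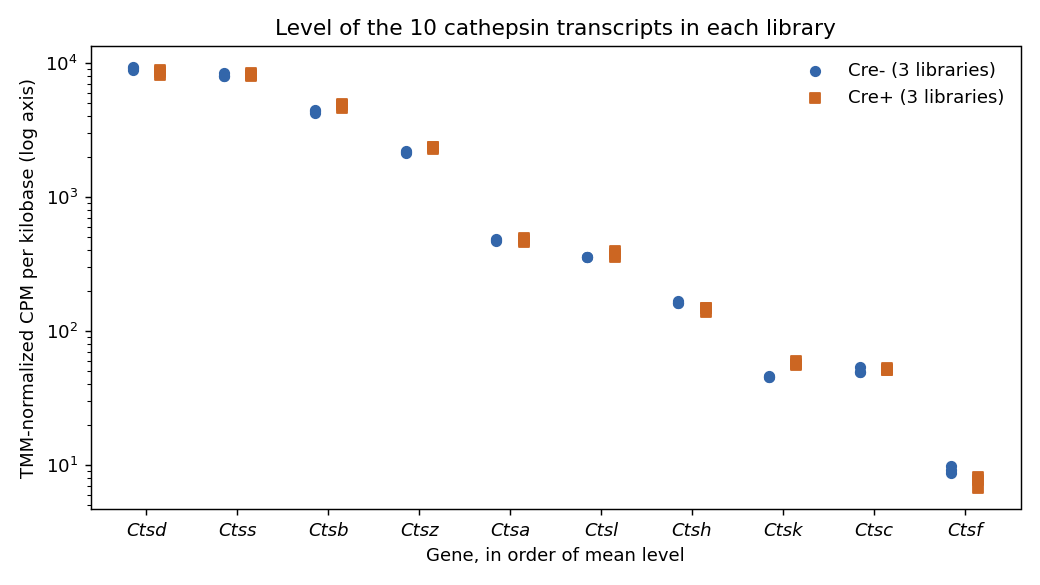
TMM-normalized CPM per kilobase (log axis) of each cathepsin transcript in the 3 Cre- and 3 Cre+ libraries, each point 1 library, with genes in order of their mean over the 6 libraries. *Ctsd*, *Ctss*, *Ctsb* and *Ctsz* lie above 2126, and *Ctsf* lies below 9.79.

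The scale depends on the gene models. Exons of *Ctsd* share 808 of 2351 bases with the gene model Gm49369 on the same strand, and exons of *Ctsl* share 1742 of 6489 bases with Gm47123 and Gm49230. All 3 of these models were at 0 counts in all 6 libraries. *Ctsa* shares 819 bases with *Neurl2* and *Pltp* on the other strand, and *Ctsb* shares 774 bases with *Fdft1*, the first enzyme committed to sterol synthesis. How reads on shared bases were counted is not given in the sources used here. With the shared bases left out of the length, an alternative added after the data were seen, *Ctsd* came to 13441 CPM per kilobase, *Ctsb* to 5232, *Ctsa* to 579 and *Ctsl* to 502. The order of the 10 genes stayed the same. However, the ranges of *Ctsd* (12308 to 14209) and *Ctss* (8033 to 8451), which overlapped on the full length, were then apart. *Ctsc*, *Ctsf*, *Ctsh*, *Ctsk* and *Ctss* shared no exonic base with another gene and no stretch of at least 100 bases at 95% identity with the transcript of another gene.

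The Cre+ cultures were set against the Cre- controls with edgeR's quasi-likelihood test over all 11429 genes. At an adjusted p-value of at most 0.05, 4 of the 10 cathepsins were called, *Ctsk* and *Ctsb* higher (2 of 10, where 2.50% of all genes tested were higher) and *Ctsh* and *Ctsf* lower in Cre+ cells (2 of 10, where 2.56% were lower). In the same test, 5.07% of all genes were called in either direction, and 8.53% of the 4606 genes whose mean reached 20 CPM, a level that all 10 cathepsins exceeded. The calls went both ways. The family's median log2 fold change was 0.01, with 6 values above and 4 below zero, beside a median of 0.00 over all genes tested. The groups were apart, without overlap of their libraries, for 6 of the 10 (*Ctsb*, *Ctsd*, *Ctsf*, *Ctsh*, *Ctsk* and *Ctsz*), as for 24.0% of all genes tested. Taken gene by gene, the smallest p that 3 against 3 cultures allow in an exact 2-sided permutation test is 0.1. Groups without overlap always give this value, so that test adds nothing for these 6.

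**Figure D2:**
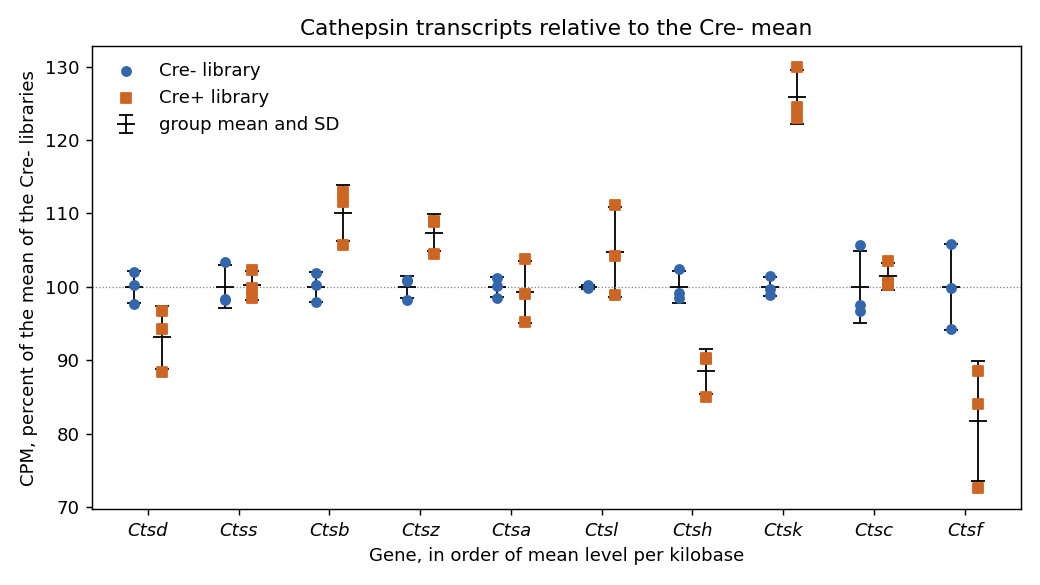
CPM of each cathepsin in each library as a percentage of the mean of the 3 Cre- libraries, with group means and SD (n = 3 cultures each). The 3 Cre+ libraries lie above the Cre- libraries for *Ctsk*, *Ctsb* and *Ctsz*, below them for *Ctsd*, *Ctsh* and *Ctsf*, and overlap with them for the other 4 genes.

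*Ctsk* (ENSMUSG00000028111) had the largest fold change of the 10. Its level was 68.7, 69.9 and 68.2 CPM in the controls against 85.8, 84.8 and 89.6 CPM in the KO cultures. The lowest Cre+ culture lay above the highest Cre- culture, by more than the range of either group. On average *Ctsk* rose by 25.8% (log2 fold change 0.33, SE 0.05, edgeR adjusted p = 0.00117). It was called in each of the 15 alternative fits, with log2 fold changes from 0.31 to 0.41, and was the only cathepsin called in all of them. Of the 6 osteoclast markers 3 were tested and 1 was called, *Acp5*, the tartrate-resistant acid phosphatase, which was higher in Cre+ cells. It was at 46.5, 58.7 and 49.6 CPM in the controls against 95.7, 61.8 and 62.2 CPM in the KO cultures (log2 fold change 0.51, SE 0.13, edgeR adjusted p = 0.0382). Cre+ replicate 1 stood well above the other 2, and without it the log2 fold change of *Acp5* was 0.26 and the call was lost (adjusted p = 0.116), as it was without Cre- replicate 1 or 3, with limma and with DESeq2. The other tested markers, *Dcstamp* (log2 fold change 0.39, edgeR adjusted p = 0.187) and *Nfatc1* (0.10, adjusted p = 0.64), overlapped between the groups, although *Dcstamp* was called without Cre- replicate 2 (0.63, adjusted p = 0.0161) and without a filter (0.46, adjusted p = 0.0014). *Calcr* and *Oscar* were at most 0.37 CPM, and the summed level of the 6 markers was 81.6 to 97.1 CPM in Cre- and 99.3 to 136 CPM in Cre+ libraries. Their part in the rise of *Ctsk* was not tested.

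*Ctsb* (ENSMUSG00000021939, chr14:63122462-63145923, plus strand), the cathepsin with the most counts, was at 25737, 26777 and 26337 CPM in the controls against 29331, 27786 and 29681 CPM in the KO cultures. All 3 Cre+ libraries were the higher, with Cre+ replicate 2 closest to the controls. The rise was 10.1% (log2 fold change 0.14, SE 0.03, edgeR adjusted p = 0.0236). It was called without Cre+ replicate 2, but not without any one of the other 5 libraries, where the adjusted p-value was 0.0502 to 0.103 with log2 fold changes from 0.12 to 0.15. With the replicate number as a block edgeR's adjusted p-value was 0.0673. For *Fdft1*, the gene that overlaps it, the log2 fold change was -0.08 (adjusted p = 0.495).

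*Ctsh* (ENSMUSG00000032359, chr9:90054152-90076089, plus strand) was at 723, 728 and 752 CPM in the controls against 624, 663 and 664 CPM in the KO cultures, without overlap. It fell by 11.5% (log2 fold change -0.18, SE 0.04, edgeR adjusted p = 0.0204). *Ctsf* (ENSMUSG00000083282, chr19:4855130-4860918, plus strand), a cysteine protease with a long propeptide, was at 43.9, 46.5 and 49.3 CPM against 33.8, 39.2 and 41.2 CPM. Cre+ replicate 1 was the lowest of these, and the highest Cre+ library lay just under the lowest Cre- library. *Ctsf* fell by 18.3% (log2 fold change -0.29, SE 0.08, edgeR adjusted p = 0.0390). Leaving out Cre- replicate 2, Cre- replicate 3 or Cre+ replicate 1 ended the calls of both genes, and leaving out Cre+ replicate 2 ended that of *Ctsf*, with adjusted p-values of 0.0572 to 0.0916 for *Ctsh* and 0.0738 to 0.152 for *Ctsf*. Both calls were also lost when more genes of low count were admitted, with filterByExpr (adjusted p = 0.101 for *Ctsh* and 0.0950 for *Ctsf*) or without a filter (0.421 and 0.109).

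The other 6 members were not called. *Ctsd* was at 21532, 20968 and 21924 CPM in the controls against 20767, 18991 and 20259 CPM in the KO cultures, all 3 lower. This difference was not called (log2 fold change -0.10, SE 0.04, edgeR adjusted p = 0.126). *Ctsz* was at 3064, 3147 and 3145 CPM against 3392, 3258 and 3396 CPM, without overlap but likewise not called (log2 fold change 0.10, SE 0.03, adjusted p = 0.111). *Ctsz* passed the threshold with filterByExpr (adjusted p = 0.0377) and without a filter (adjusted p = 0.0109). In the genes of the main test, leaving out the filter raised the log2 fold changes by a median of 0.08, and those of the cathepsins by the same 0.08.

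*Ctss* was at 10918, 10909 and 11476 CPM in the controls against 11086, 10930 and 11357 CPM in the KO cultures. The groups overlapped, the log2 fold change was 0.00 and its 95% interval, not adjusted for the number of genes, ran from -0.07 to 0.07. *Ctsa* overlapped too, at 2262 ± 30.8 CPM against 2248 ± 95.9 CPM (SD, n = 3 cultures each), with an interval of -0.09 to 0.07. *Ctsc* was at 295 ± 14.6 CPM against 299 ± 5.43 CPM, with an interval of -0.08 to 0.12. *Ctsl* was at 2332, 2325 and 2322 CPM in the controls against 2585, 2425 and 2300 CPM in the KO cultures. The Cre- cultures were nearly identical here, whereas the Cre+ cultures spread to both sides of them (log2 fold change 0.07, SE 0.04, edgeR adjusted p = 0.421).

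**Figure D3:**
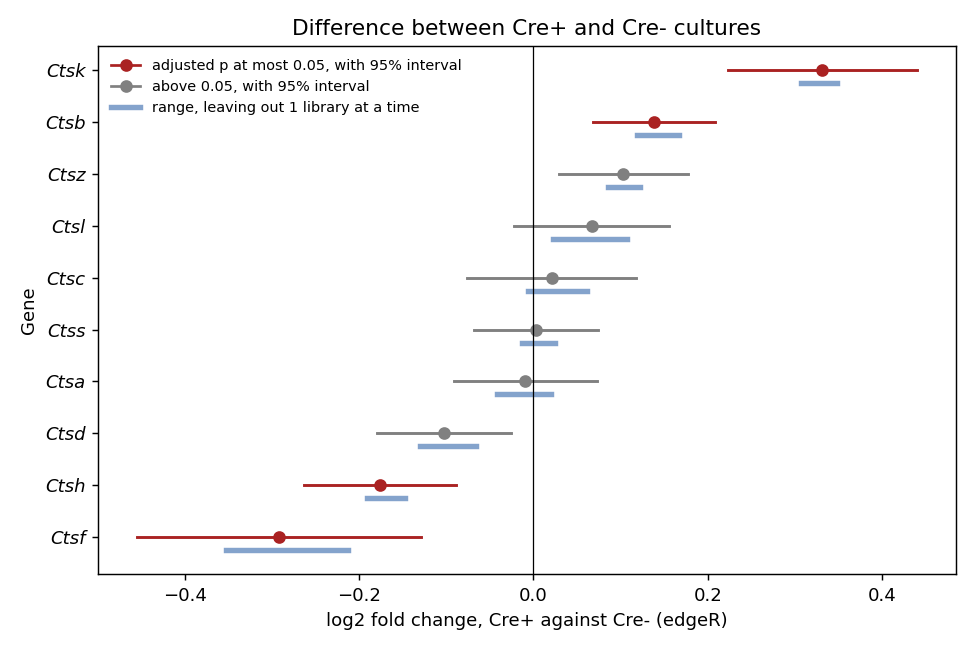
Log2 fold change of each cathepsin between Cre+ and Cre- cultures (x axis) from edgeR's quasi-likelihood test, with the 95% interval and, in blue, the range when each of the 6 libraries was left out in turn. *Ctsk* lies highest at 0.33 and *Ctsf* lowest at -0.29, and the ranges of *Ctsa*, *Ctsc* and *Ctss* include 0.

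*Ctsk* and *Ctss* are neighbours on chromosome 3 of GRCm38. *Ctsk* runs from 95499256 to 95509362 and *Ctss* from 95526786 to 95556403, on the same strand with a gap of 17423 bases, and 548 aligned bases of their transcripts are 64.8% identical. The log2 ratio of *Ctsk* to *Ctss* CPM was -7.33 ± 0.0569 in the Cre- and -7.00 ± 0.0148 in the Cre+ cultures (SD, n = 3 each). The groups did not overlap, with a difference of 0.33. *Ctsb* and *Ctsd* are the cysteine and the aspartic member with the most counts. The log2 ratio of *Ctsb* to *Ctsd* was 0.29 ± 0.0531 in Cre- and 0.53 ± 0.0299 in Cre+ cultures, a separation that follows from *Ctsb* being higher and *Ctsd* lower in all 3 Cre+ libraries. As a share of all counts on the 10 genes, *Ctsb* took 38.8% in Cre- and 41.8% in Cre+ libraries on average, and *Ctsd* took 31.7% and 28.9%. These are 2 of 4 ratios computed, all chosen after the values were seen and given without a test.

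Of 13 further cathepsin genes, only *Ctso* passed the filter. It was at 40.0, 40.8 and 40.0 CPM in the controls against 37.2, 36.4 and 37.5 CPM in the KO cultures, lower without overlap but not called (log2 fold change -0.12, SE 0.06, edgeR adjusted p = 0.284). *Ctse*, an aspartic protease, was at 0.537 to 1.26 CPM and *Ctsw*, a protease of lymphocytes, at 0.0456 to 0.313 CPM.

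The genes that inhibit, process and deliver the cathepsins were described as lists. None of the 3 tested inhibitors of cysteine cathepsins was called, and the other 6 of that list were at most 1.90 CPM. *Cst3*, cystatin C, had the highest level of these, at 1652 ± 49.1 CPM in control against 1604 ± 40.5 CPM in KO cultures (SD, n = 3 each, log2 fold change -0.04, edgeR adjusted p = 0.61). None of the 6 partner and processing genes was called, with a median log2 fold change of 0.02. In this list *Psap*, the precursor of the saposins, had the highest level, at 8298, 9005 and 8527 CPM in the controls against 8572, 9724 and 10667 CPM in the KO cultures. The groups overlapped and Cre+ replicate 3 stood highest (log2 fold change 0.17, SE 0.06, edgeR adjusted p = 0.128). Without Cre+ replicate 1, the lowest Cre+ library, and also without a filter, *Psap* passed the threshold as higher (log2 fold change 0.24 in each, edgeR adjusted p = 0.00877 and 9.76e-06). Leaving out the filter raised the log2 fold changes of the genes of the main test by a median of 0.08. Without Cre+ replicate 3, that of *Psap* was 0.09 (edgeR adjusted p = 0.442). *Lgmn*, the asparaginyl endopeptidase that cuts several cathepsins into their chains, was at 3257 ± 46.2 CPM against 3500 ± 100.1 CPM. Its groups did not overlap, and it was not called (log2 fold change 0.10, SE 0.04, adjusted p = 0.113). Like *Ctsz*, it passed the threshold with filterByExpr (adjusted p = 0.0388) and without a filter (adjusted p = 0.00982).

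Of 7 other lysosomal peptidases, 1 was called lower and none higher. This was *Napsa*, the aspartic protease napsin A and thus a relative of cathepsin D, at 31.9, 35.7 and 36.7 CPM in the controls against 24.9, 26.9 and 28.0 CPM in the KO cultures. It fell by 23.5% without overlap (log2 fold change -0.39, SE 0.08, edgeR adjusted p = 0.00738) and was called in all 15 alternatives. Of 11 genes that sort hydrolases to the lysosome none was called, with 8 of 11 log2 fold changes below zero and a median of -0.08. *M6pr*, the cation-dependent mannose 6-phosphate receptor, was the most abundant of them (log2 fold change 0.02, SE 0.04, adjusted p = 0.82). None of the 4 MiT/TFE factors, which drive lysosomal genes, was called. For *Tfe3*, the most abundant of them, the log2 fold change was -0.06 (SE 0.06, adjusted p = 0.63).

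**Figure D4:**
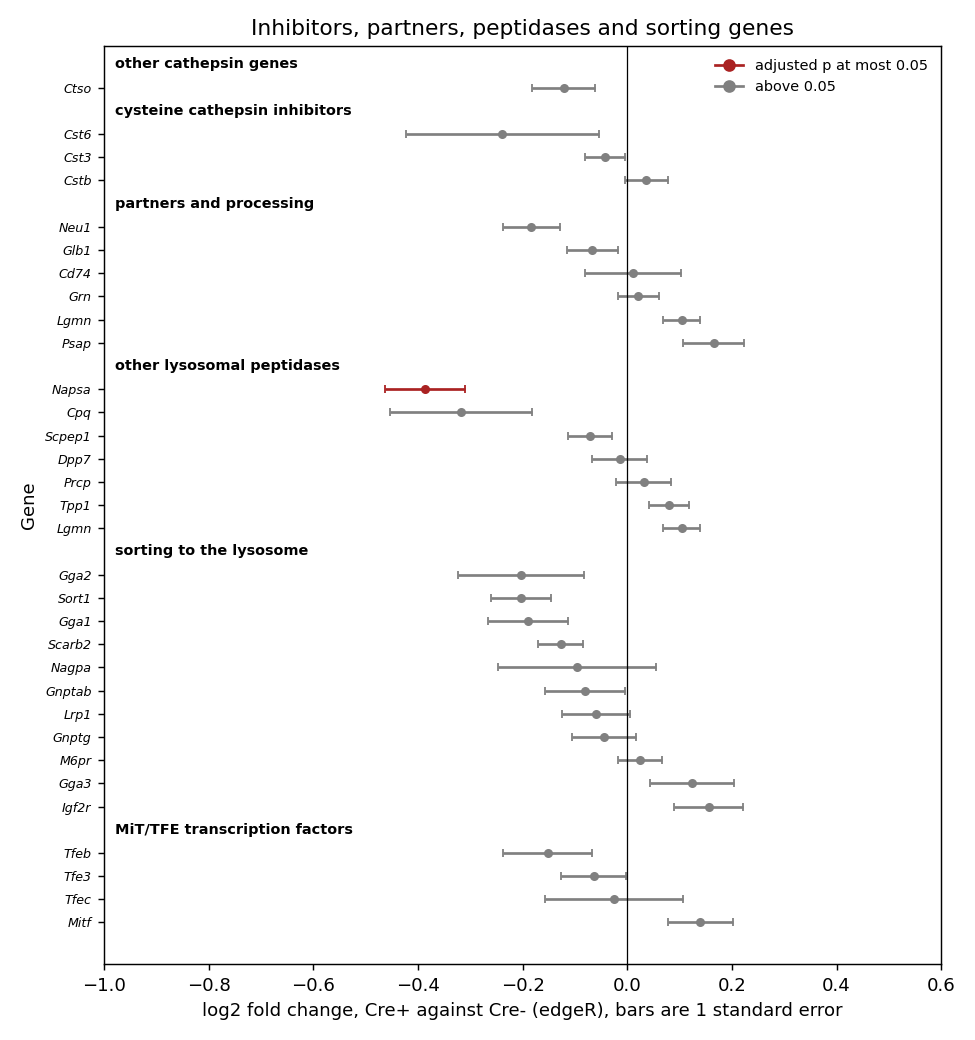
Log2 fold change between Cre+ and Cre- cultures (x axis) with 1 SE for the tested genes of 6 lists around the cathepsins, from edgeR's quasi-likelihood test. *Napsa*, at -0.39, is the only gene drawn in red as passing the threshold, and *Lgmn* stands in 2 lists.

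Promoters from RefSeq (GRCm38.p6, 250 bases before to 50 after each RefSeq start) were at hand for 8 members, with none for *Ctsb* and *Ctsh*. They were searched on both strands for CACGTG, the core of the element bound by MiT/TFE factors and also of the E-box of the clock, and for AGGTCA, the half-site of REV-ERB and other nuclear receptors. CACGTG was found in 4 of the 8 genes, none of them *Ctsk*, and AGGTCA in 4 of the 8, also without *Ctsk*. Of all genes in the table, 8.09% and 18.1% had a match, and of all promoters of this length 7.15% and 16.3%. Distances are from RefSeq's starts, which can lie inside the gene models used for counting. The CACGTG windows shown for *Ctsa* and *Ctsl* and the proximal one of *Ctsd* lie inside these models. The windows below show the CACGTG matches, with the motif in capitals, because this motif is shared by 1 called member and 3 that were not called. At *Ctsd* (chr7:142387908-142387937 and chr7:142388048-142388077, minus strand) the matches begin 98 and 245 bases before the RefSeq start, and at the distal match the complement of AGGTCA begins within the motif.
Ctsd, proximal: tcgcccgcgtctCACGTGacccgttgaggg
Ctsd, distal: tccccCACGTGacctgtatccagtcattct
Ctsa (chr2:164833749-164833778, plus strand, 12 bases before a RefSeq start, the first of 2 matches): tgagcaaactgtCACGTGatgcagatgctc
Ctsf (chr19:4855074-4855103, plus strand, 79 bases before the RefSeq start): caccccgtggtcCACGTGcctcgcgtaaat
Ctsl (chr13:64370739-64370768, minus strand, 236 bases before the RefSeq start): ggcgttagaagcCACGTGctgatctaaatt
Of these 4 genes, *Ctsf* was called lower and *Ctsa*, *Ctsd* and *Ctsl* were not called. AGGTCA, shown in capitals in either orientation, was found in *Ctsa*, *Ctsd*, *Ctsf* and *Ctss* and is shown for the called *Ctsf* and for *Ctss*, the neighbour of *Ctsk*.
Ctss (chr3:95526638-95526667, plus strand, 136 bases before the RefSeq start): tgttctctgctgAGGTCAttctattgatgg
Ctsf (chr19:4854915-4854944, plus strand, 240 bases before the RefSeq start): gggactgcacTGACCTcacaggtctgccat
*Ctss*, with a match, had a log2 fold change of 0.00 and *Ctsk*, without one, had the largest rise. A match of letters is no evidence of binding, and no match says only that these letters are not in the window.

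For the 3 called members with the smallest p-values, the transcripts most alike over the 6 libraries were found among genes averaging 10 CPM or more, by the root mean square difference of centred log2 CPM. Closest to *Ctsk* were *Arhgap18* (0.0251 on the log2 scale) and *Kpna3* (0.0273), where *Ctsk* itself varied by 0.168. Closest to *Ctsh* were *Yipf3* (0.0190) and *Ubxn4* (0.0212), and closest to *Ctsb* were *Dusp3* (0.0085) and *Dhrs3* (0.0129). These genes share the libraries and the contrast with the cathepsins, so the likeness is given without a test.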

How the data were processed

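RNA of 6 microglia cultures (3 Cre-, 3 Cre+) was sequenced from SMARTer libraries. The authors deposited whole-number gene counts on GRCm38 per library, with CPM and FPKM beside them, and the deposited CPM and FPKM values were used only to check their unit. The submitters' processing notes name STAR 2.7.9a and featureCounts 2.0.3, while the paper's methods name other versions. Whether counting used strand is not given in the sources used here. Here, 356 ribosomal RNA genes were left out, and a gene was tested if it exceeded 1 CPM in 4 or more libraries. Group differences were tested with edgeR 4.0.16 (TMM, quasi-likelihood, Benjamini-Hochberg adjustment, threshold 0.05), a procedure tested on simulated data. Limma 3.58.1, DESeq2 1.42.0, other scalings and filters, a replicate block and leaving out each library were alternatives. Named were all members, the 3 most abundant other cathepsins, from each pathway list the called genes and the most abundant, *Nr1d1*, and the 2 genes most like each of 3 called members. *Acp5*, *Dcstamp*, *Nfatc1*, *Itgam*, *Aif1*, *Cx3cr1* and *C1qa* were named after their values were seen. So were the endothelial, astrocyte and oligodendrocyte markers and the genes that overlap members. The members and lists were chosen with earlier results of these data known. Counting error is small at 87545868 to 110909129 counts per library, so the spread between cultures limits precision. Gene models were those of the annotation whose gene IDs matched the files (55227 genes), and transcripts were compared with blastn 2.17.0. From the list of microglia and macrophage markers, 1 gene is not reported here.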

Additional observations from a re-analysis of the deposited data

How the results depend on the processing

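Of the 4 cathepsin calls, all 4 were made with library totals, DESeq2 size factors, limma with and without quality weights, DESeq2's test and the filter of above 1 CPM in all 6 libraries. Leaving out 1 library left 1 to 3 members called and 321 to 435 genes called in all, against 579 genes with all libraries. The number of genes called was 886 with DESeq2's test and 1528 without a filter. Without a filter or with filterByExpr, 3 members were called, all higher, and the median log2 fold change of all genes was -0.20 without a filter. The cause was not tested.

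The labels do not say whether same-numbered cultures were paired. Deviations of same-numbered libraries correlated at 0.0146, -0.0202 and -0.0442, and not every library correlated best with its own number. Correlations this small show no pairing, but cannot tell whether same-numbered cultures shared a preparation. With the replicate block, 430 genes and 3 members were called, without *Ctsb*.

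Log2 fold changes near zero changed sign under some alternatives, none of them called. *Ctsa* came to 0.0693 without a filter, 0.0334 with filterByExpr and at most 0.0198 when 1 library was left out (lowest -0.0416). *Ctsc* ranged from -0.0066 to 0.0619 and *Ctss* from -0.0130 to 0.0251 when 1 library was left out, and *Ctss* was -0.0011 with DESeq2's size factors and with DESeq2's test. *Cst3* was 0.0361 without a filter and 0.0004 with filterByExpr, and *Tfe3* was 0.0133 without a filter. The share of counts on the 10 cathepsins in Cre- libraries was 6.73% with ribosomal RNA left out, and leaving out 1 library gave 6.65% in Cre- and 6.78% to 6.95% in Cre+ libraries.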
